A study of Mus musculus with 6 samples.

Results

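Fatty acids are lengthened and desaturated in the endoplasmic reticulum. The ELOVL elongases condense an activated fatty acid with malonyl-CoA and so set which chains are extended. The stearoyl-CoA desaturases place a double bond in saturated chains, and the desaturases Fads1 and Fads2 add further double bonds to polyunsaturated chains. Myelin, the lipid-rich sheath that Schwann cells wrap around axons of the sciatic nerve, holds much very-long-chain and monounsaturated lipid. In liver, SREBP-1c, the product of Srebf1, is known to drive Scd1, Elovl6, Elovl5, Fads1 and Fads2.

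The levels of 10 genes of these families, Elovl1, Elovl3, Elovl4, Elovl5, Elovl6, Elovl7, Scd1, Scd3, Fads1 and Fads2, were examined in whole sciatic nerves of Srebf-1c KO mice and of wild-type littermates. They were chosen by name from 22180 genes measured, each by a probe set annotated to that gene alone, and all 10 had a single such probe set. Scd2 was not analysed here. Each genotype was represented by 3 samples of mice aged 10 months, each on 1 Affymetrix whole-transcript array, so the number of arrays limits the precision. The labels call the mutants Srebf-1c KO and do not tie each sample to a mouse of its own. P-values therefore measure the spread between samples, which may be partly technical. The sources used here do not give strain, sex or the way the allele was made.

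Values are log2 of the deposited intensities. Srebf1, the targeted gene, had a log2 intensity of 8.11, 8.06 and 8.04 on the KO arrays and of 9.53, 9.55 and 9.70 on the wild-type arrays (log2 fold change -1.52 ± 0.11, SE, limma adjusted p = 0.0497). It was the 1 gene of 22180 past an adjusted p of 0.05. Its call was lost when any of the 6 arrays was left out (adjusted p from 0.255 to 0.764) although its log2 fold changes then ran only from -1.56 to -1.47. The KO values stayed above the background of the arrays, and whether the probe set lies in the deleted part of the gene was not checked here, so the size of the difference need not measure the loss of SREBP-1c. Of the myelinating Schwann cell markers, 7 of 10 were analysed here, and all 7 were bright, with mean log2 intensities from 9.73 for Egr2 in wild type to 13.63 for Pmp22 in KO. Markers of neighbouring tissue were bright too, and they differed between arrays of 1 genotype. The 10 skeletal muscle markers had mean log2 intensities from 9.56 for Myh2 in wild type to 13.65 for Atp2a1 in wild type. The level of a gene in these samples therefore cannot be credited to nerve cells alone. The fat markers are given with the genes that moved with them.

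Of the 10 genes, 8 lay well above background in the whole nerve samples on all 6 arrays, and Elovl3 and Scd3 lay below it on all 6. Background was taken from 1105 olfactory receptor genes, which have little or no known role in nerve: their 95th percentile ran from a log2 intensity of 6.54 to 6.70 over the arrays, and 56.6% of all genes tested were above it on every array. The dimmest single value among the 8 genes was 9.07, for Elovl4 in wild-type replicate 3. Elovl3, an elongase known from brown fat and skin, had values of 5.84, 5.66 and 5.33 in KO and of 5.75, 6.25 and 5.75 in wild type. Scd3, a stearoyl-CoA desaturase known from skin and its glands in mouse, had values of 5.95, 6.00 and 5.78 in KO and of 6.47, 5.79 and 5.44 in wild type. The levels of these 2 genes thus cannot be told from background, and a fall or a small rise in KO would not have been detectable. Scd1 and Scd3 belong to a cluster of close relatives, so their probes may also take up transcripts of other Scd genes.

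**Figure D1:**
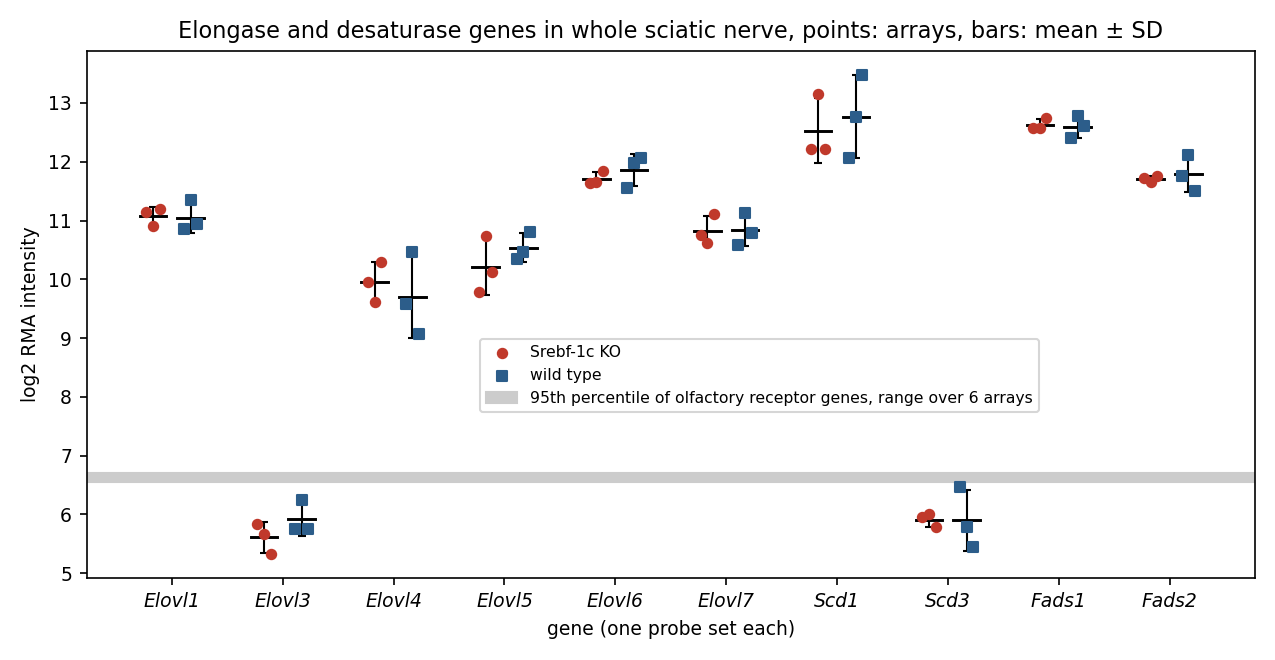
Log2 RMA intensity of the 10 genes on each array, with Srebf-1c KO left of wild type, the mean and SD of 3 arrays as bars, and the grey band marking the 95th percentile of olfactory receptor genes. Elovl3 and Scd3 lie below the band on every array and the other 8 genes lie above it, with the KO and wild-type points of each gene overlapping.

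None of the 10 genes passed the test of a difference between genotypes. Of the 10, 0 passed an adjusted p of 0.05 in limma, where 0.00451% of all genes did, and 0 reached even an unadjusted p of 0.05, where 5.83% did. The study's stated criterion joins an unadjusted p under 0.05 to a change of 1.5-fold or more. It was met by 0 of the 10 and by 1.19% of all genes. In all 10 genes the KO and wild-type values overlapped. The groups were apart in 12.3% of all genes, and 10 genes are too few to show a difference from that share. The mean was lower in KO for 6 of the 10 and higher for 4, beside 56.9% of all genes with a lower mean. The median log2 fold change was -0.045 over the 10 genes and -0.032 over all genes. After quantile normalization, or with the arrays brought to 1 median, 9 of the 10 means were lower in KO, so the split of directions depended on the scaling. The median log2 fold change over all genes was -0.041 and -0.079 under these 2 scalings. For a single gene, an exact permutation test of 3 arrays against 3 cannot give a p below 0.1.

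Promoter windows of 300 bases, running from 250 bases before to 50 after a gene's start, were read from RefSeq on GRCm38.p6, on which 7 of the 10 genes matched. Elovl3, Scd1 and Fads1 did not match. The windows of Elovl4 and Elovl7 are shown as examples of genes whose levels peaked on KO replicate 3 and wild-type replicate 2. Elovl1 and, by a near tie, Fads2 peaked on the same arrays, and their windows are not shown. That of Elovl5 is shown because its levels peaked on KO replicate 2 and wild-type replicate 3. Capitals mark E-boxes (CANNTG) and CCAAT boxes (CCAAT, written ATTGG where it lies on the opposite strand), both searched on either strand. E-boxes are known as binding sites of SREBP-1c among many other factors, and CCAAT boxes bind NF-Y, a known partner of the SREBPs.
Elovl4, chr9:83806256-83806555, minus strand: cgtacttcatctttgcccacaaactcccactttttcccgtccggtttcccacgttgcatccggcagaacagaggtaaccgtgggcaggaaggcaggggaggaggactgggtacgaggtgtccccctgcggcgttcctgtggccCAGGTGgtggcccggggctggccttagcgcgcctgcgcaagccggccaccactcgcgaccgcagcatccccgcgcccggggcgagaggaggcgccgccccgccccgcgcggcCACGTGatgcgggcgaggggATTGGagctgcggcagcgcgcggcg
Elovl7, chr13:108214154-108214453, plus strand: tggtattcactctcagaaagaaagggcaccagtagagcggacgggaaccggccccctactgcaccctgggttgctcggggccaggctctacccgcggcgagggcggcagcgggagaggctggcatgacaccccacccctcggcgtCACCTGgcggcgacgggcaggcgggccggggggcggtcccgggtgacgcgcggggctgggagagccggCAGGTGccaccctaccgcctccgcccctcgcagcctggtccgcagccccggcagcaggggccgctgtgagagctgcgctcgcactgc
Elovl5, chr9:77917115-77917414, plus strand: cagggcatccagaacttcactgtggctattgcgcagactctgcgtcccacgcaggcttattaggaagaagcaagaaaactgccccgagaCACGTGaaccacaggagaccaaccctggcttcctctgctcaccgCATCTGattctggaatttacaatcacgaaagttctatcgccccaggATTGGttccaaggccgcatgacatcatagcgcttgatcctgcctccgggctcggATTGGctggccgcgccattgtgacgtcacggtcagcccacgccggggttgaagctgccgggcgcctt
The Elovl4 window holds 2 E-boxes and 1 CCAAT box, that of Elovl7 holds 2 E-boxes, and that of Elovl5 holds 2 E-boxes and 2 CCAAT boxes. An E-box was present in the windows of 5 of the 7 genes and in 72.3% of all 32851 windows, and a CCAAT box in those of 3 of the 7 and in 37.4% of all windows. The windows of Elovl6 and Fads2 held 0 E-boxes and 0 CCAAT boxes. The sterol regulatory element in the form TCACNCCAC was found in 0 of the 7 genes and in 1.24% of all windows, and these letters may lie outside the window. A match or its absence is a description of the letters and says nothing of binding.

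The elongases of saturated and very long chains differed by less than their spread between arrays. Elovl1, which extends saturated and monounsaturated chains to the lengths found in sphingolipids, had a log2 intensity of 11.14, 10.90 and 11.19 in KO and of 10.85, 11.35 and 10.94 in wild type. The KO values lay within the wild-type range, and the log2 fold change was 0.029 ± 0.17 (SE, limma adjusted p = 0.990). Its 95% interval ran from 0.776 to 1.34 times the wild-type level. Elovl7, which extends saturated chains, had values of 10.76, 10.62 and 11.11 in KO and of 10.59, 11.13 and 10.79 in wild type. Its log2 fold change was -0.010 ± 0.19 (adjusted p = 0.997, limma), with an interval from 0.728 to 1.35 times wild type. The direction of Elovl1 turned after quantile normalization and with the arrays brought to 1 median, and those of Elovl1 and Elovl7 turned with single arrays left out.

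Elovl4, the elongase of the longest chains, best known from retina and skin, was among the most variable of the genes. It had a log2 intensity of 9.95, 9.62 and 10.29 in KO and of 9.58, 10.46 and 9.07 in wild type. The wild-type arrays thus held both the highest and the lowest value. The log2 fold change was 0.25 ± 0.35 (SE, limma adjusted p = 0.951), and the interval, from 0.669 to 2.11 times wild type, includes a 2-fold rise. Leaving out wild-type replicate 3 gave a log2 fold change of -0.069, and leaving out wild-type replicate 2 gave 0.63. Over the 6 arrays Elovl4 spanned 2.62-fold, a range at the 94.6th percentile of all genes.

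Elovl6, which makes stearate from palmitate, the main product of fatty acid synthase, had values of 11.64, 11.66 and 11.84 in KO and of 11.55, 11.98 and 12.06 in wild type. Of the wild-type arrays, 2 lay above every KO array and replicate 1 lay below them all. The log2 fold change was -0.14 ± 0.16 (SE, limma adjusted p = 0.934), with an interval from 0.692 to 1.18 times wild type. Its mean was lower in KO with each array left out in turn (-0.30 to -0.046 on the log2 scale).

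Scd1, which turns stearate into oleate, had a log2 intensity of 12.22, 13.16 and 12.21 in KO and of 12.06, 12.76 and 13.48 in wild type. KO replicate 2 and wild-type replicate 3 stood far above the other arrays of their genotype. The log2 fold change was -0.23 ± 0.40 (SE, limma adjusted p = 0.959), with an interval from 0.444 to 1.63 times wild type, the widest of the 10 genes on the log2 scale. Scd1 spanned 2.66-fold over the arrays, and its spread within genotypes lay at the 96.4th percentile of all genes. Its log2 fold change turned to 0.12 when wild-type replicate 3 was left out. Omitting KO replicate 2 gave -0.55, and omitting wild-type replicate 1 gave -0.59.

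Elongation and desaturation of polyunsaturated chains to arachidonic acid rests on Fads2, Elovl5 and Fads1. Elovl5, which extends polyunsaturated chains, had a log2 intensity of 9.78, 10.73 and 10.13 in KO and of 10.34, 10.46 and 10.81 in wild type. KO replicates 1 and 3 lay below every wild-type array, and KO replicate 2 lay among them. The log2 fold change was -0.32 ± 0.25 (SE, limma adjusted p = 0.896), with an interval from 0.529 to 1.21 times wild type. Without KO replicate 2 it was -0.58 (unadjusted p = 0.0257, adjusted p = 0.712, limma), the smallest unadjusted p that any of the 10 genes had under any setting. Without KO replicate 1 it was -0.10.

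Fads1 and Fads2 each differed between genotypes by less than 0.1 on the log2 scale. Fads2, the desaturase that opens the polyunsaturated pathway, had values of 11.73, 11.66 and 11.75 in KO and of 11.75, 12.12 and 11.51 in wild type. Its 3 KO values lay within 0.1 of each other and inside the wild-type range. The log2 fold change was -0.080 ± 0.17 (SE, limma adjusted p = 0.970), with an interval from 0.718 to 1.25 times wild type. Fads1, which acts later in the same pathway, had values of 12.57, 12.58 and 12.74 in KO and of 12.40, 12.78 and 12.61 in wild type. Its log2 fold change was 0.036 ± 0.14 (adjusted p = 0.985, limma) and turned to -0.038 after quantile normalization. Its interval, from 0.818 to 1.29 times wild type, was the narrowest of the 10 genes. For Fads1 and Fads2, a fall to the 0.348 of wild type seen for Srebf1 lies outside the interval. Smaller falls, down to 0.818 and 0.718 of wild type, lie inside it.

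**Figure D2:**
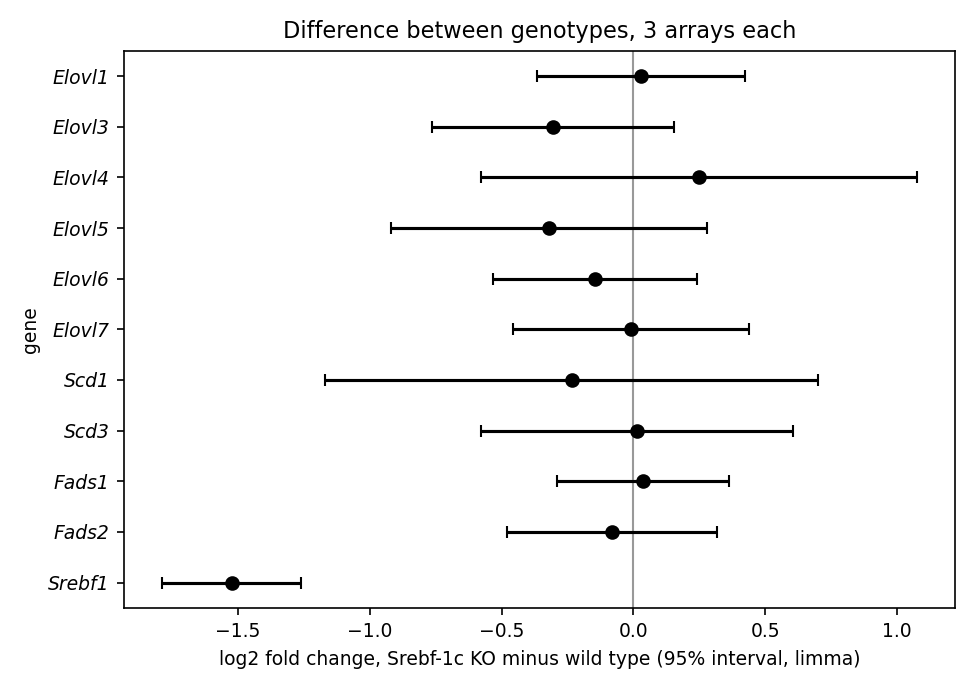
Log2 fold change of the 10 genes and of Srebf1, Srebf-1c KO minus wild type, with 95% intervals from limma on 3 arrays per genotype. All 10 intervals include 0, and that of Srebf1, at -1.52, does not.

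The 2 highest arrays of a gene were compared with 2 pairs of arrays that were not set in advance. Elovl3, Elovl6 and Scd3 matched neither pair. Scd1 and Elovl5 were highest on KO replicate 2 and wild-type replicate 3, an order seen for 9.54% of all genes. With 2 of 10 genes, this count cannot be told from that share. KO replicate 2 and wild-type replicate 3 were also the arrays with the most fat marker signal. A fat score was taken from the 7 of 9 adipocyte markers analysed here, by centring each on its average over the 6 arrays on the log2 scale and averaging the markers. It was -1.02, 1.60 and -1.03 on KO replicates 1, 2 and 3 and -0.88, -0.43 and 1.75 on the wild-type replicates. Leptin, Lep, the hormone made by fat cells, had a log2 intensity of 7.22, 11.97 and 7.97 in KO and of 7.04, 7.47 and 11.78 in wild type. Macrophage and endothelial marker scores were also highest on the same 2 arrays, at 0.27 and 0.25 on KO replicate 2 and at 0.38 and 0.42 on wild-type replicate 3. With the fat score as a covariate the log2 fold change of Scd1 was -0.11 ± 0.17 (SE) and that of Elovl5 was -0.25 ± 0.15. Without these 2 arrays, a choice made after seeing the data, Scd1 stood at -0.19 ± 0.26 and Elovl5 at -0.44 ± 0.19, and 0 of the 10 genes met the criterion of the study. In bulk tissue, more cells of a type and more RNA per cell cannot be told apart.

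Elovl1, Elovl4, Elovl7, Fads1 and Fads2 had KO replicate 3 and wild-type replicate 2 as their highest arrays, an order seen for 5.80% of all genes. For Fads2 this rests on a near tie, with 11.7541 on KO replicate 3 and 11.7519 on wild-type replicate 1. The ranges of Elovl1, Elovl7 and Fads1 over the arrays lay at the 43.3rd, 49.6th and 25.6th percentiles of all genes. KO replicate 3 and wild-type replicate 2 also had the highest myelinating Schwann cell score. It was 0.077, -0.071 and 0.14 on the KO replicates and -0.13, 0.17 and -0.19 on the wild-type replicates. Elovl4 ranked all 6 arrays in the same order as this score. Of the 7 markers in the score, 4 (Mbp, Mag, Sox10 and S100b) were highest on wild-type replicate 2, Pmp22 and Pmp2 on KO replicate 3, and Egr2 on KO replicate 1, while Pmp2 had its lowest value on wild-type replicate 2. Egr2, the transcription factor that drives myelination, had higher values on all 3 KO arrays (10.32, 10.14 and 10.22) than on the wild-type arrays (9.63, 9.93 and 9.64). Groups apart in this direction were seen for 905 of 22180 genes. The log2 fold change of Egr2 was 0.50 ± 0.13 and did not pass the test (SE, limma adjusted p = 0.850). With the Schwann score as a covariate, chosen after seeing the data, the log2 fold change of Elovl4 was -0.10 ± 0.15 (SE), against 0.25 ± 0.35 without it, and that of Elovl1 was -0.11 ± 0.12. Neither passed the test (limma adjusted p = 0.942 and 0.923). With the score taken from the other 6 markers, leaving out Egr2, again a choice made after seeing the data, Elovl4 stood at 0.14 ± 0.13 and Elovl1 at -0.015 ± 0.12, and Elovl4 no longer ranked the arrays in the order of the score. The skeletal muscle score ran the other way on wild-type replicate 2, at -0.80, and was highest on KO replicate 1, at 0.64, and wild-type replicate 1, at 0.70. The part of fat, Schwann cell and muscle content in the levels of these genes was not tested beyond these covariates.

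**Figure D3:**
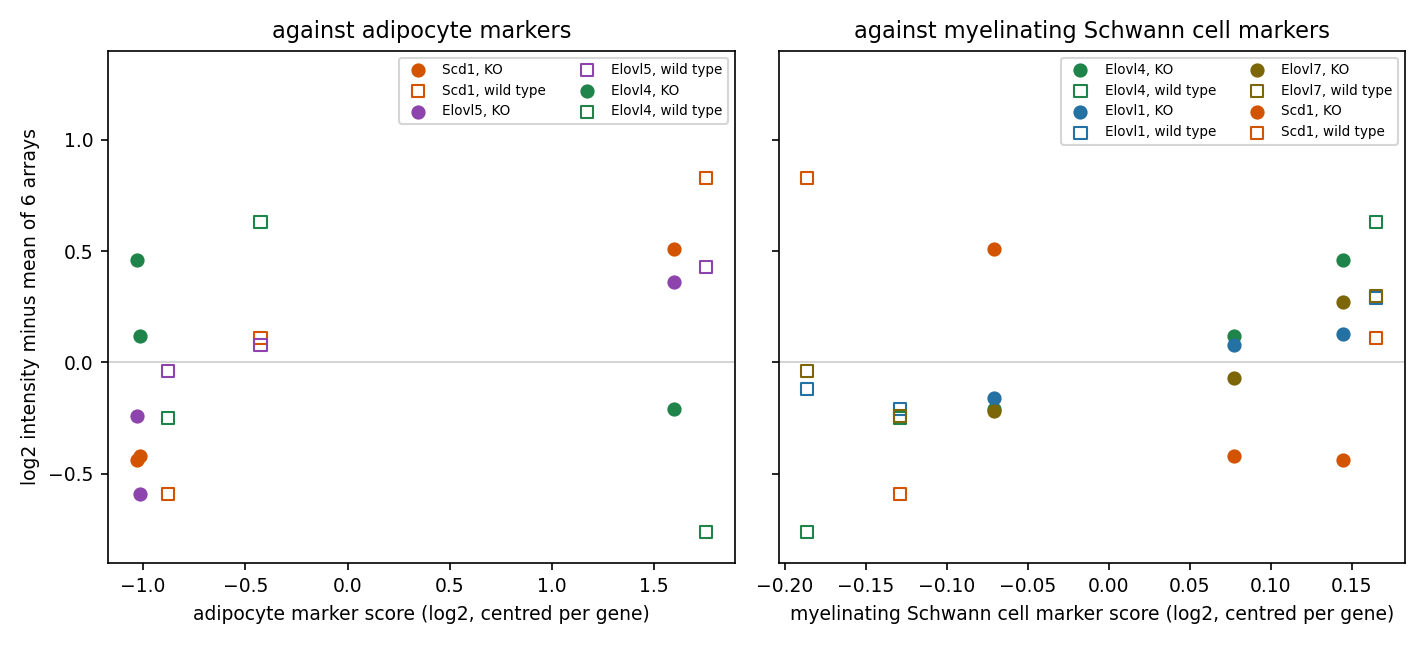
Log2 intensity minus the mean of 6 arrays for named elongases and Scd1, against the adipocyte marker score (left) and the myelinating Schwann cell marker score (right), with filled circles for Srebf-1c KO and open squares for wild type, 1 point per array. Scd1 and Elovl5 are highest on the 2 arrays with fat scores of 1.60 and 1.75, where Elovl4 is below its mean, and Elovl4 is highest on the 2 arrays with Schwann scores of 0.14 and 0.17.

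Elovl3 lay below background on every array. Its highest value, 6.25, was on wild-type replicate 2, the highest array for 23.8% of all genes. Wild-type replicate 2 also had the highest level of the brown fat gene Ucp1, the uncoupling protein of heat production. A link of Elovl3 to brown fat content was not tested. Ucp1 had a log2 intensity of 7.01, 7.39 and 5.96 in KO and of 6.27, 8.88 and 5.94 in wild type. Cidea, another gene known from brown fat, stood at 8.98 on that array and at 7.61 or less on the other 5. Of the keratinocyte markers, which would accompany skin, 4 of 5 were analysed here. Their mean log2 intensities ran from 6.15 for Krt14 in KO to 7.47 for Krt10 in wild type. Krt10 lay above background on 6 arrays and Lor on 4, while Krt1 and Krt14 lay above it on 0.

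The lists of pathway genes around the elongases and desaturases were described in the same fit. Relatives outside the 10 had 0 of 6 measured genes past any threshold, with a median log2 fold change of -0.11. Elovl2, the elongase of longer polyunsaturated chains, was near background at 6.72, 7.04 and 7.20 in KO and 7.17, 6.66 and 6.51 in wild type. Fads6 stood at -0.13 ± 0.12 (SE) and the sphingolipid desaturase gene Degs2 at -0.18 ± 0.17. The enzymes that complete each round of elongation after the ELOVL step had 0 of 6 past the adjusted or the unadjusted threshold and a median of 0.011. Tecr, the reductase of the final step, had a log2 intensity of 12.40, 12.35 and 12.44 in KO and of 12.55, 12.44 and 12.47 in wild type. The KO values all lay below the wild-type values, as in 8.21% of all genes, but only just. The difference was -0.089 ± 0.11 (limma adjusted p = 0.939). Hsd17b12, the ketoacyl-CoA reductase, stood at -0.10 ± 0.13, and the dehydratase gene Hacd2 at 0.35 ± 0.45, with its highest values, 11.40 and 11.08, on KO replicate 2 and wild-type replicate 3.

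Genes that pass electrons to the desaturases had higher means in KO for 5 of 6, beside 9556 of all 22180 genes. The median of the 6 was 0.13, and 0 of 6 reached an unadjusted p of 0.05. Cyb5r3, the main cytochrome b5 reductase, had a log2 intensity of 12.57, 12.41 and 12.68 in KO and of 11.77, 12.66 and 12.26 in wild type, a difference of 0.33 ± 0.23 (SE). The lowest of these was wild-type replicate 1, and without it the difference was 0.094. Cyb5r1 had its 3 KO values below all of its wild-type values, as in 8.21% of all genes. It stood at 8.61, 8.51 and 8.54 in KO and 8.92, 8.67 and 8.65 in wild type, and did not pass the test (-0.19 ± 0.12, limma adjusted p = 0.887). Cyb5r2 stood at 0.21 ± 0.21.

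Upstream of elongation, 5 of the 7 measured genes of substrate supply and activation had a lower mean in KO, beside 56.9% of all genes. The median log2 fold change of the 7 was -0.14, and 0 passed the adjusted test. Fasn, Acly and Acaca had log2 fold changes below those of all 10 elongases and desaturases. Fatty acid synthase, Fasn, had a log2 intensity of 11.19, 11.93 and 11.07 in KO and of 11.45, 12.16 and 12.99 in wild type (-0.80 ± 0.40, SE, limma adjusted p = 0.867). Acly, which makes cytosolic acetyl-CoA, had values of 9.94, 10.16 and 9.85 in KO and of 10.18, 10.46 and 11.19 in wild type (-0.63 ± 0.26, limma adjusted p = 0.850). It was the 1 of the 7 to meet the criterion of the study, which 1.19% of all genes met, and it did not meet it in 12 of 21 other settings, among them the ANOVA of the study (unadjusted p = 0.117) and 5 of the 6 fits with 1 array left out. Acaca, which makes malonyl-CoA, stood at -0.44 ± 0.21, and Acacb, the other acetyl-CoA carboxylase, at 0.24 ± 0.33. Fasn, Acly and Acaca each had their highest value on wild-type replicate 3, the array with the highest fat score, and without it they stood at -0.40, -0.34 and -0.23. With the fat score as a covariate they stood at -0.68 ± 0.19, -0.56 ± 0.17 and -0.40 ± 0.18 (SE). Without the array of each genotype highest in fat, they stood at -0.67, -0.425 and -0.258. The part of fat in these differences was not tested further. Whether their difference exceeds that of the elongases was not tested. Peroxisomal genes that shorten very long chains had 4 of 4 measured means lower in KO, beside 56.9% of all genes. Of the 4, 0 reached an unadjusted p of 0.05, and their median was -0.21. Acaa1a, a peroxisomal thiolase, stood at -0.29 ± 0.17 and Scp2 at -0.15 ± 0.21. Abcd2, a peroxisomal fatty acid transporter, stood at -0.27 ± 0.72, with values of 10.97 on KO replicate 2 and 11.25 on wild-type replicate 3 and of 9.61 or less on the other arrays.

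Among 9 regulators measured, Srebf1 passed the adjusted test and Insig1 met the criterion of the study. Insig1, an anchor that keeps SREBP precursors in the endoplasmic reticulum and a known SREBP target, had a log2 intensity of 10.82, 10.57 and 10.46 in KO and of 11.02, 11.19 and 11.43 in wild type. The groups did not overlap, with the KO values below, as in 8.21% of all genes, and the log2 fold change was -0.60 ± 0.16 (SE, limma adjusted p = 0.850). Insig1 lay just past the limit of 1.5-fold and fell short of it in 6 of 21 other settings, with -0.57 without KO replicate 2, -0.52 without KO replicate 3, -0.49 without wild-type replicate 3, -0.58 and -0.57 with the fat or the Schwann score as a covariate, and -0.46 without the array of each genotype highest in fat. Ppara, the fatty acid receptor that drives fat oxidation, stood at 0.23 ± 0.15. None of the 7 regulators other than Srebf1 and Insig1 reached an unadjusted p of 0.05.

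**Figure D4:**
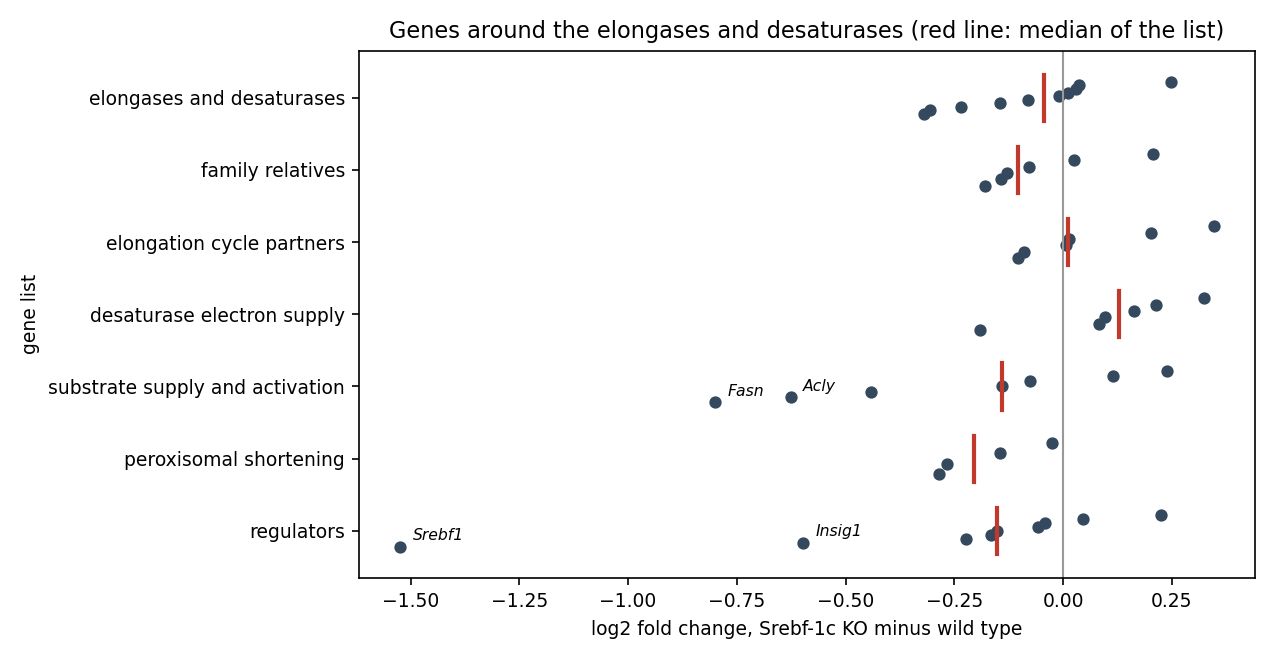
Log2 fold change, Srebf-1c KO minus wild type, of each measured gene in the elongase and desaturase list and in 6 lists around it, 1 point per gene, with red lines at the list medians. The 10 elongases and desaturases lie between -0.32 and 0.25, while Srebf1, Fasn, Acly and Insig1 lie at -0.60 or lower.

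The genes whose pattern over the 6 arrays was most like Scd1 and Elovl4, the 2 genes of the family with the widest range, were found by the root-mean-square difference of centred log2 levels. For Scd1, which spanned 1.41 on the log2 scale, they were Mfge8 at 0.115, Ret and Bgn at 0.122, and Il13ra1 and Dgat1 at 0.128. Dgat1 makes triglyceride in its last step, Mfge8 is a secreted milk fat globule protein and Bgn is a matrix proteoglycan. For Elovl4, which spanned 1.39, they were Sema4g at 0.184, the intermediate filament gene Nes at 0.187, Bex6 at 0.199, and Plk5 and Tex55 at 0.211. With 6 arrays and 22180 genes, near matches of this kind arise readily.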

How the data were processed

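RNA of 6 whole sciatic nerve samples was labelled with the Affymetrix WT kit, per the labels. The deposited values are RMA intensities on a linear scale, computed by the authors with TAC and the Partek software, per the series' design text, which gives no versions. The submitters' processing notes name the build mm8. Genotypes follow titles and genotype field, since another label field calls all 6 samples wild type.

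Log2 was taken with no pseudocount. Of 41077 probe sets, 23521 carried 1 gene symbol in the platform annotation, 1814 several and 15742 none. The brightest probe set stood for a gene, which gave 22180 genes, of which 21994 matched RefSeq by Entrez identifier. KO minus wild type was fitted with limma 3.58.1 (R 4.3.3), using its moderated two-sided test, and p-values were adjusted over all genes by Benjamini-Hochberg. The procedure was tested on simulated data. Joins and plots used Python 3.11.15 with pandas 2.3.3, numpy 2.4.6 and matplotlib 3.10.9.

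The genes, the lists and the marker sets were chosen with earlier results of these data known. The text names the 10 genes, the 3 genes of smallest p in each list, and the 5 genes most like each of the 2 most variable genes, leaving out predicted, clone and small RNA genes and olfactory and vomeronasal receptors. Acacb was named outside this rule, beside Acaca. Other markers were named after their values were seen. Alternatives were a replicate block, the ANOVA of the study, other priors, weights, scalings, filters, a pseudocount of 16, marker scores as covariates and arrays left out.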

Additional observations from a re-analysis of the deposited data

How the results depend on the processing

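Over 21 other settings, 0 of 206 values of the 10 genes passed an adjusted p of 0.05 in limma (lowest adjusted p = 0.649), and the count of the 10 that met the criterion of the study stayed at 0. Directions were less stable, and of the 8 genes above background only Elovl5 and Elovl6 kept 1 direction, a lower mean in KO, in all 21. Elovl3 and Scd3 were not tested without the dimmest 25% or 50% of genes. The number with a lower mean was 5 to 8 when 1 array was left out. After quantile normalization the log2 fold changes that turned were -0.013 for Elovl1, -0.036 for Scd3 and -0.038 for Fads1, and with arrays at 1 median they were -0.017, -0.034 and -0.010; the number with a lower mean rose to 9 in both. With array weights Elovl7 turned to 0.076. With the fat score as a covariate Scd3 turned to -0.023, with the muscle score Scd3 turned to -0.045 and Elovl7 to 0.027, and with the Schwann score Elovl1, Elovl4 and Fads1 turned to -0.11, -0.10 and -0.037 and Abcd2 to 0.39, whereas with that score without Egr2 Elovl1 alone of these turned, to -0.015. Without the array of each genotype highest in fat, Elovl7 turned to 0.072 and Scd3 to -0.26. With 1 array left out in turn the values ran from -0.068 to 0.18 for Elovl1, -0.069 to 0.63 for Elovl4, -0.15 to 0.14 for Elovl7, -0.59 to 0.12 for Scd1, -0.22 to 0.30 for Scd3, -0.063 to 0.13 for Fads1, -0.22 to 0.083 for Fads2, -0.025 to 0.74 for Hacd2, -0.009 to 0.42 for Cyb5r2 and -0.91 to 0.39 for Abcd2. The cause was not tested.

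The 1 gene called, Srebf1, became 0 with the replicate block (adjusted p = 0.713), the ANOVA of the study (0.308), arrays at 1 median (0.0502), the fat (0.0867), muscle (0.224) or Schwann score (0.432, or 0.280 without Egr2) as a covariate and without the arrays highest in fat (0.472), and with 1 array left out the count was 0 or 1, the 1 being not Srebf1 but Vmn1r157, a vomeronasal receptor gene, without KO replicate 2. Whether the replicate numbers pair the samples cannot be settled from 3 arrays per genotype. Same-numbered KO and wild-type deviations correlated at 0.1172, 0.0117 and -0.2327 across genes, and other-numbered ones at -0.2627 to 0.2812. With the replicate block 288 genes met the criterion of the study, against 265. That count was 138 with the ANOVA, 150 and 89 without the dimmest 25% and 50%, 139 with a pseudocount of 16, 34 at a fold limit of 2, 819 without the arrays highest in fat and 231 to 552 with 1 array left out, with 552 without KO replicate 2, 435 without wild-type replicate 1 and 488 without wild-type replicate 3. Few arrays, and signal at background for Elovl3 and Scd3, limit what can be detected.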
